A study of Homo sapiens with 24 samples.

Results

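The genes described here encode the subunits of the oxidative phosphorylation complexes that are made from nuclear DNA. They were chosen by name alone, as protein-coding genes whose symbol starts with NDUFA, NDUFB, NDUFC, NDUFS or NDUFV (complex I), UQCR (complex III), COX4 to COX8 (complex IV) or ATP5 (complex V), or is SDHA, SDHB, SDHC or SDHD (complex II), without the NDUFAF assembly factors. This gave 90 genes of the 58051 identifiers in the files, 40 for complex I, 4 for complex II, 9 for complex III, 17 for complex IV and 20 for complex V. Among them, NDUFC2-KCTD14 and ATP5MF-PTCD1 are readthrough genes that share all exon bases with their neighbours. NDUFA4 is kept with complex I by its name, although it is now counted with complex IV by many.

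Oxidative phosphorylation takes place in the inner mitochondrial membrane. Complex I oxidises NADH and complex II oxidises succinate, and both pass electrons through coenzyme Q to complex III, from which cytochrome c carries them to complex IV, which reduces oxygen. Complexes I, III and IV pump protons, and complex V, the ATP synthase, uses the proton gradient to make ATP. Complex II is encoded in the nucleus only, while the others combine nuclear subunits with a few encoded in mitochondrial DNA. Colorectal cancer cells are known for high Wnt signalling, in which β-catenin, the product of CTNNB1, acts as a transcriptional coactivator.

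RNA was sequenced from HT29, HCT116 and SW480 cells, which are established colorectal cancer cell lines. The authors state that APC is inactivated by mutation in HT29 and SW480, and that HCT116 has a gain-of-function mutation of CTNNB1 itself. Each line had 2 WT clones and 2 CTNNB1 KO clones, and each clone was sequenced in round A and again in round B, which gave 24 libraries in 6 groups of 4. KO clones carried a biallelic deletion of CTNNB1 exon 7, made with CRISPR/Cas9, which shifts the reading frame. WT clones came from the same procedure with the gene left as in the parental line, so WT means unedited. A KO group is thus 2 clones of 1 line, and p-values between genotypes that use 4 libraries a group count both rounds of a clone as separate samples. The values are normalized counts, that is reads per gene divided by a size factor of the library, and 22297049 to 29068378 reads were counted on genes per library. CTNNB1 itself had normalized counts of 5883 to 6113 in WT and 256 to 337 in KO libraries of HT29, 10512 to 12800.1 in WT and 187 to 255 in KO libraries of HCT116 and 43114 to 50939.5 in WT and 839 to 1312 in KO libraries of SW480, so every KO library lay below every WT library of its line. All 37 mitochondrial identifiers held 0 reads in every library, so the subunits encoded in mitochondrial DNA could not be measured.

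The library HT29 KO 38B stood apart. Subunit genes took 1.91% of its reads, against 1.00% to 1.24% in the HT29 WT libraries, and its cytosolic ribosomal protein genes took 14.1%, against 7.52% to 9.49%. In this library the median subunit gene was 1.17 above the WT mean on the log2 scale. The other protein-coding genes with a canonical transcript of at most 1000 bases had a median of 1.22 there, and those of at least 4000 bases had a median of -0.44. The counts of HT29 calls and the medians over all subunit genes are therefore given with and without it. Other HT29 values include it unless said otherwise. Summed normalized counts of 10 colorectal epithelial markers ran from 325834 to 466928 in HT29 WT and 490423 to 784641 in HT29 KO libraries, where KRT19, KRT20 and LGALS4 rose, and ran from 131456 to 161229 and 135921 to 194203 in HCT116, and from 142497 to 197513 and 152940 to 177130 in SW480, with CDX1 at 0 in all groups but HT29 KO and KRT20 at 0 in SW480 KO. In HCT116 KO EPCAM and CDH1 rose and KRT20 and CDX2 fell, and in SW480 KO EPCAM and CDX2 fell. Fibroblast and leukocyte markers, 11 genes, summed to 16.2 to 29.8 in HT29 WT and 113 to 1218 in HT29 KO libraries. The matrix gene LUM rose in HT29 KO, PTPRC was at 0 in KO only, and DCN was at 0 in both genotypes. In the other groups these markers summed to 265 to 610, and VWF rose and COL1A2 fell in SW480 KO. Their part in the results was not tested. In bulk RNA, fewer cells of a type and less RNA per cell cannot be told apart.

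**Figure D1:**
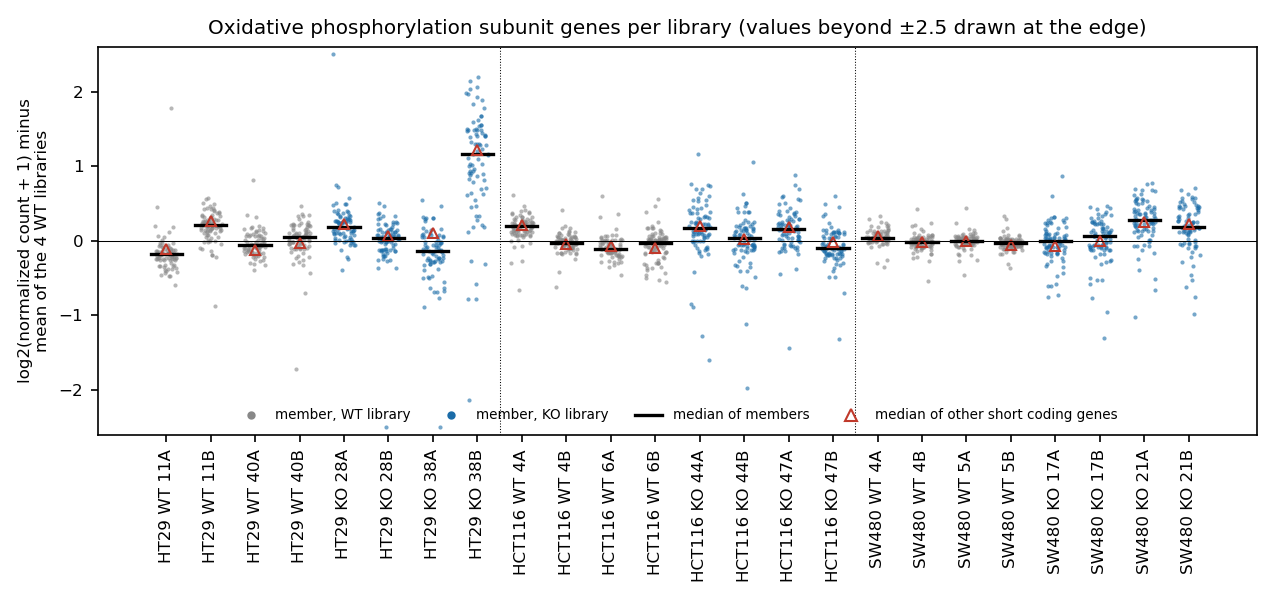
Each point is 1 tested subunit gene in 1 of the 24 libraries, as log2(normalized count + 1) minus the mean of the 4 WT libraries of its line, with black bars for the median of the subunit genes and red triangles for the median of other short coding genes. The bar of HT29 KO 38B stands at 1.17, and bar and triangle lie close together in most libraries.

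Subunit transcripts are short. The median canonical transcript was 750 bases, against 3307.5 for the protein-coding genes tested in HT29, and 56 of the 90 had 1000 bases or fewer. Since short genes moved together in several libraries, medians over the other short coding genes are given beside those of the subunits. By the annotation, 34 of the 90 share exon bases with another gene and 9 share over 50% of them. NDUFA13 shares 83.9% with an unnamed gene on its strand, NDUFB8 72.0% and NDUFA11 68.2%, so that reads which fall on both may be left out or assigned to either, and their counts are uncertain. Likewise UQCRHL is a near-identical copy of UQCRH, the hinge protein of complex III, and the counting could split their reads.

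Of the 90 genes, 79 passed the filter on low values in all 3 lines (4 or more of the 8 libraries with a normalized count of 10 or above), 82 passed in at least 1 line, and 8 in none. The 8 are both readthrough genes, ATP5MGL, with at most 28.5, and the tissue-restricted isoforms of complex IV, COX4I2, COX6A2, COX7A1, COX7B2 and COX8C. COX8C, a testis isoform, was at 0 in all 24 libraries. COX4I2, the isoform of lung, did not exceed 1.83, COX6A2, the heart and muscle isoform, did not exceed 2.14, and COX7A1, another muscle isoform, did not exceed 6.85. Their widely expressed partners COX4I1, COX6A1, COX7A2 and COX8A each had at least 646 normalized counts in every library. COX6B2, the testis partner of COX6B1, had at most 38.8. Apart from these, NDUFA7, whose exon bases are mostly shared, passed only in HCT116, NDUFA4L2 only in HT29 and SW480, and COX6B2 only in HCT116 and SW480. Thus the lines expressed the general isoforms of complex IV, with the tissue-restricted forms at or near 0.

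Levels between genes were compared as WT means of normalized counts per kilobase of the canonical transcript. ATP5F1B, the catalytic β subunit of the ATP synthase, had the highest level per kilobase in each line, with 15487 for HT29, 20554 for HCT116 and 17368 for SW480. COX4I1, a large nuclear subunit of complex IV, had 12435, 18919 and 7183 in the same order, and COX6B1, a subunit that faces the intermembrane space, had 14853, 7069 and 9728 in the same order. The median per kilobase was lowest for complex I in each line, with 1930.1, 1760.0 and 1469 likewise. The median of complex IV was 4480.5, 4107 and 2726, and that of complex V 3637, 4061 and 2798. These orders were not tested, and the ranges of the complexes overlap. Genes with mostly shared exon bases, such as NDUFV2 and NDUFA13 of complex I, enter the medians with uncertain counts.

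Among the genes in which the WT levels of the lines were far apart were accessory subunits of complex I. NDUFA12 had 7155 ± 370.2 per kilobase in SW480 WT (SD, n = 4), against 2935 ± 309 in HT29 and 1936 ± 73.6 in HCT116. NDUFB9 stood the other way, with 2633 ± 85.3 in SW480 against 12353 ± 3487 in HT29 and 9109 ± 515 in HCT116. For both genes SW480 did not overlap with the other lines. The genes for the c subunit of the ATP synthase ring, ATP5MC1, ATP5MC2 and ATP5MC3, encode the same mature protein, and ATP5MC2 had 6151 per kilobase in HT29, 3511 in HCT116 and 7089 in SW480. As a share of all reads, the subunit genes made up 1.11% ± 0.10 of HT29 WT (SD, n = 4), 1.11% ± 0.11 of HCT116 WT and 0.940% ± 0.018 of SW480 WT libraries, and in KO 1.32% ± 0.40, 1.14% ± 0.10 and 1.00% ± 0.088. The WT and KO ranges overlapped in each line.

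**Figure D2:**
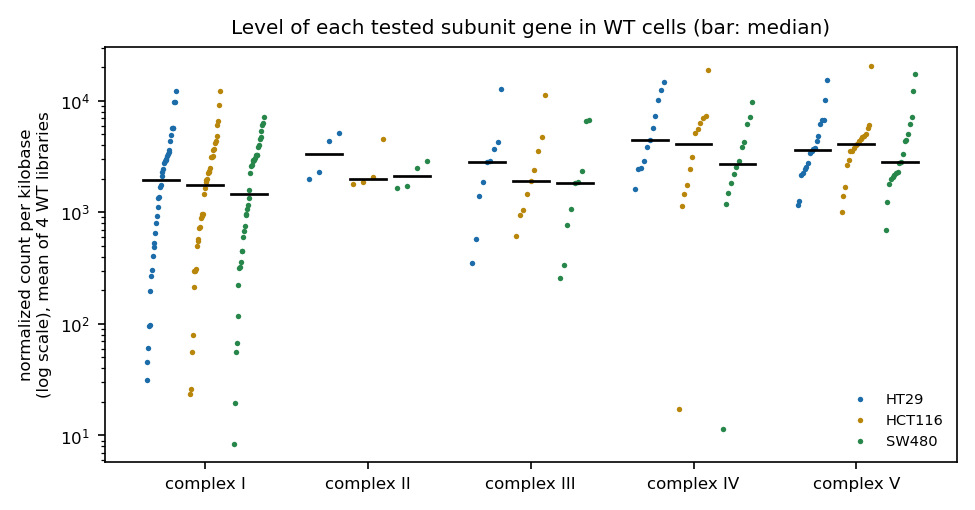
Each point is the WT level of 1 tested subunit gene as normalized counts per kilobase on a log axis, by complex and line, with bars for the medians. Complex I has the lowest median in each line, 1469 in SW480 against 2798 for complex V.

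Whether loss of β-catenin changed the subunit genes was asked first in SW480, where most were called. Of 81 genes tested, 23 rose and 3 fell in KO against WT, that is 28.4% and 3.70%, and 55 did not pass the test. Over all 16325 genes tested in SW480, 26.1% rose and 22.1% fell, so the share of subunit genes that rose was near the background. No subunit gene that passed changed by more than 1 on the log2 scale, while 17.5% of all genes passed both thresholds. The median log2 fold change was 0.14, against -0.0042 for all genes. Of the 693 other short coding genes, 211 rose and 104 fell. In 23 subunit genes every KO library lay above every WT library and in 6 below, beside 25.3% and 20.9% of all genes.

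The rises came from every complex. For complex I, 11 of 38 tested rose, NDUFA1, NDUFA3, NDUFA5, NDUFA6, NDUFA8, NDUFB3, NDUFB5, NDUFB6, NDUFS4, NDUFS8 and NDUFV3, of which NDUFS8 is an iron-sulfur core subunit and the others are accessory. NDUFA12 and NDUFA13 fell. For complex II, 3 of 4 rose, SDHB, SDHC and SDHD. For complex III, UQCR10 and UQCRB rose and UQCRHL fell, of 9. For complex IV, 5 of 12 rose, COX5B, COX6A1, COX6C, COX7A2 and COX7B, and none fell. For complex V, ATP5MC1 and ATP5PD, the latter part of the peripheral stalk, rose, of 18. Median log2 fold changes were 0.13 for complex I, 0.25 for II, -0.05 for III, 0.23 for IV and 0.07 for V. Some of these names were added after their values were seen, to account for all genes called.

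**Figure D3:**
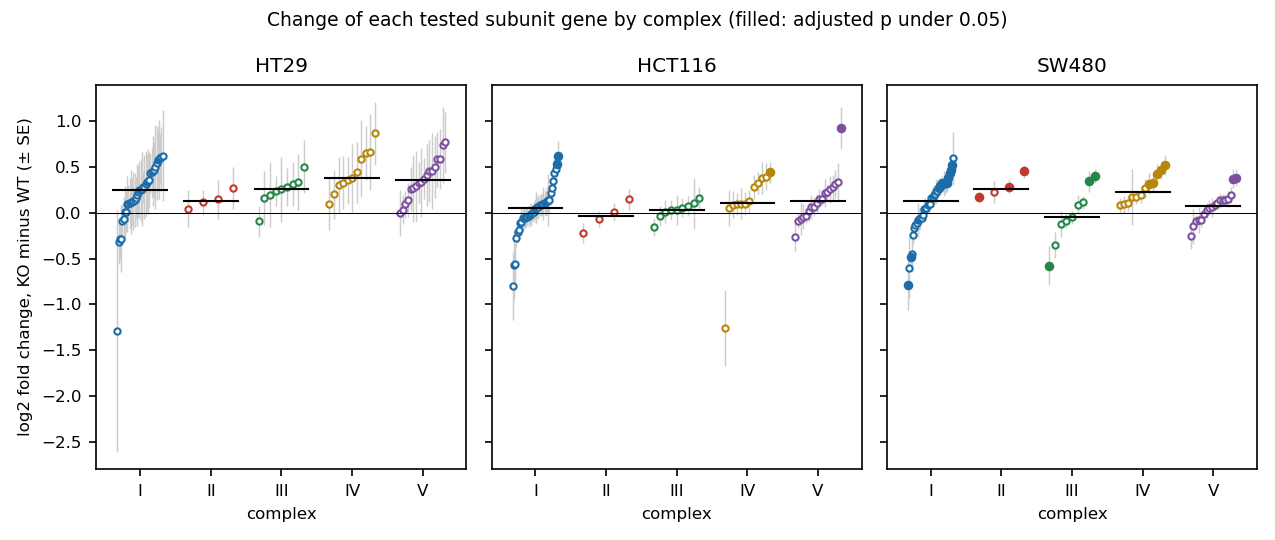
Each point is the log2 fold change (KO minus WT, with its SE) of 1 tested subunit gene, by line and complex, filled where the limma adjusted p was under 0.05, with black bars for the medians. SW480 has 26 filled points, HCT116 has 4 and HT29 has none.

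COX5B, a matrix-facing, zinc-binding subunit of complex IV, had the largest rise in SW480. Its normalized counts were 4555, 3988, 4379 and 4024 in WT libraries 4A, 4B, 5A and 5B, and 5216, 5374, 7144 and 6804 in KO libraries 17A, 17B, 21A and 21B. All KO libraries were higher, those of clone 21 most, with a log2 fold change of 0.52 (SE 0.11, n = 4 and 4, limma adjusted p = 0.00264). NDUFA5, an accessory subunit of the peripheral arm of complex I, had 1967, 2017, 1970.1 and 1879 in WT and 2449, 2679.9, 3137 and 3033 in KO libraries. The groups did not overlap, and the log2 fold change was 0.52 (SE 0.08, limma adjusted p = 0.0005). NDUFB5, of the membrane arm, ran from 3007 to 3288 in WT and 3925 to 5065 in KO libraries, with 0.46 (SE 0.09, limma adjusted p = 0.00186). COX7B, a small subunit of complex IV, ran from 4392 to 4725 in WT and 5451 to 7284 in KO libraries, with 0.46 (SE 0.09, limma adjusted p = 0.00174). Both showed no overlap between the genotypes.

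SDHD and SDHC anchor complex II in the membrane, SDHB carries its iron-sulfur clusters and SDHA binds FAD. SDHD had 2324, 2182, 2363 and 2336 in SW480 WT and 2869, 3096, 3434 and 3192 in KO libraries, again without overlap, and a log2 fold change of 0.45 (SE 0.07, limma adjusted p = 0.000392). SDHB rose with 0.28 (SE 0.07, limma adjusted p = 0.00955) and SDHC with 0.17 (SE 0.06, limma adjusted p = 0.0422). SDHA had 6336 to 7391 in WT and 6361 to 9356 in KO libraries and did not pass, with 0.23 (SE 0.12, limma adjusted p = 0.154). In HCT116 and HT29 no gene of complex II was called. In HCT116 their log2 fold changes were -0.22, 0.14, -0.07 and 0.01 for SDHA to SDHD, and in HT29 0.04, 0.26, 0.11 and 0.15. The HT29 values include KO 38B. Against the WT mean, the median of complex II was 0.12 in KO 28A, 0.02 in 28B, -0.18 in 38A and 0.57 in 38B. The largest difference between clones of a genotype within complex II was in SDHA between the HT29 WT clones, where it did not pass the test.

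The fall of NDUFA12, an accessory subunit of complex I, was distinct. It had 3989, 3768, 4274 and 4053 normalized counts in WT and 2642, 2847, 3068 and 2917 in KO libraries, so that both KO clones lay below all WT libraries. The log2 fold change was -0.49 (SE 0.07, limma adjusted p = 0.000207). NDUFA13 had only 34.4, 19.3, 30.9 and 32.3 in WT and 18.8, 11.0, 17.7 and 18.2 in KO libraries, few reads for a gene whose exons are mostly shared, with -0.79 (SE 0.27, limma adjusted p = 0.0351). UQCRHL had 163 to 285 in WT and 122 to 201 in KO libraries, which overlap, with -0.58 (SE 0.22, limma adjusted p = 0.0483). Neither of the last 2 kept its call with clone as a random effect or without clone KO 17. Among the isoform pairs, COX6A1 had 0.31 (SE 0.11, limma adjusted p = 0.0404) and COX7A2 had 0.33 (SE 0.10, limma adjusted p = 0.0174), while COX4I1 with 0.19, COX6B1 with 0.09, COX8A with 0.17 and COX7A2L, which helps join complexes III and IV, with 0.26 did not pass. Of the c subunit genes, ATP5MC1 rose with 0.38 (SE 0.09, limma adjusted p = 0.00695), and ATP5MC2 with 0.14 and ATP5MC3 with 0.10 did not pass.

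The count of rises in SW480 depended on the scaling and on how clones were treated. Under upper-quartile scaling 15 rose and 9 fell, beside 22% and 28% of all genes. With clone as a random effect 15 rose and 1 fell, beside 20.1% and 14.3%. With the mean of each clone as 1 sample, 2 against 2, only NDUFA5 and SDHD rose and NDUFA12 fell, beside 14.1% and 9.15%, so that both shares of the subunits were then below the background. NDUFA5, SDHD, COX5B and NDUFA12 kept their calls under both of the former. Upper-quartile scaling moved the median of all genes to -0.09. Among single libraries, 33 rose without KO 17A and 15 without KO 21B, beside 23.8% and 21.9% of all genes. Falls numbered 6 without KO 21A, 1 without WT 5A and 1 without WT 5B, beside 21.4%, 18.7% and 18.5%.

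More subunit genes were called between the 2 SW480 KO clones than between the genotypes. Between KO 17 and KO 21, 43 of 81 subunit genes were lower in KO 17 and none was higher, with a median of -0.25, beside 15.3% of all genes lower and 12.7% higher. At an unadjusted limma p under 0.05, 0 were higher, beside 2878 of all 16325 genes, and no other tool was run. The other short coding genes moved likewise, with 39.0% of 693 lower and 2.31% higher, so the share of the subunits, which was not tested against theirs, stood nearer to that of short genes than to all genes. By complex, 21 of 38 genes of complex I, 2 of 4 of II, 3 of 9 of III, 8 of 12 of IV and 9 of 18 of V were lower in KO 17. Rounds A and B are the only replicates of a clone, so this test rests on 2 libraries each.

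Against WT, KO 17 had a median of 0.01 with 42 of 81 genes above 0, and KO 21 had 0.23 with 65. The other short coding genes had -0.04 and 0.23, and cytosolic ribosomal protein genes -0.23 and 0.01. Of the 23 genes that rose in KO, 14 were lower in KO 17 than in KO 21. The largest called differences, chosen after their values were seen, were falls in NDUFA11 with -0.67, ATP5ME, a small membrane subunit of the ATP synthase, with -0.63, and NDUFC2 with -0.54. NDUFV2 with 0.81, whose exon bases are mostly shared, and COX6B2 with 0.73, both of low counts, ran the other way and did not pass. NDUFA12, the called fall, was -0.55 in KO 17 and -0.43 in KO 21, and SDHD was 0.37 and 0.53, so these genes moved the same way in both. Without KO 17, 46 subunit genes rose and 3 fell, beside 26.4% and 24.5% of all genes. Without KO 21, 14 rose and 10 fell, beside 23.3% and 23%.

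**Figure D4:**
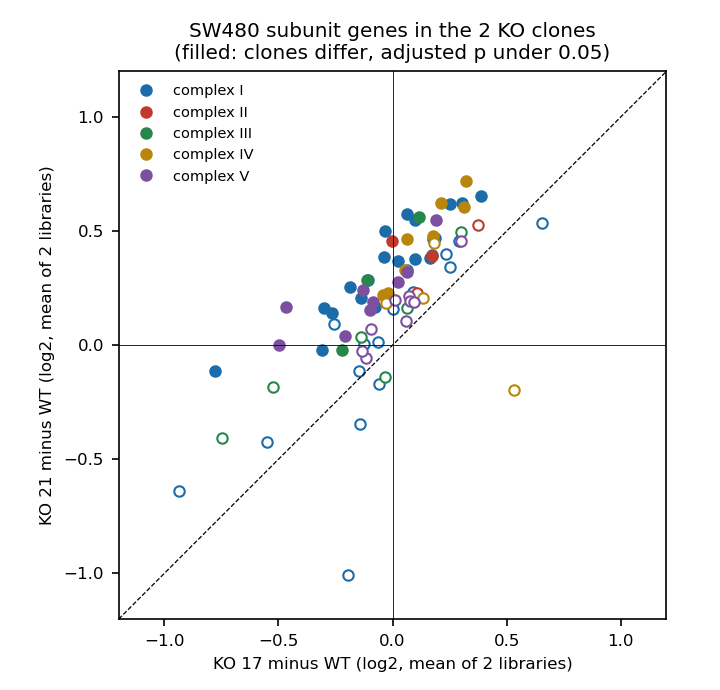
Each point is 1 subunit gene of SW480, with KO 17 minus WT on the x axis and KO 21 minus WT on the y axis (log2, means of 2 libraries), filled where the clones differ at an adjusted p under 0.05, and a dashed line marks equal values. Most points lie above the line, and 43 of 81 are filled.

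To show sequence before a start of transcription given by RefSeq, 120 bases are printed for 7 genes chosen after their values were seen. They are SDHD, COX5B and NDUFA5 among the largest rises in SW480, NDUFA12 as the fall there, ATP5MC2 as the largest rise in HCT116, and COX7A2 and NDUFS8, which rose in both. The sequences are from RefSeq on GRCh38.p14 and run 5′ to 3′. They lie at chr11:112086753-112086872, plus strand for SDHD, chr2:97645942-97646061, plus strand for COX5B, chr7:123601652-123601771, minus strand for NDUFA5, chr12:95003698-95003817, minus strand for NDUFA12, chr12:53676084-53676203, minus strand for ATP5MC2, chr6:75250299-75250418, minus strand for COX7A2 and chr11:68030561-68030680, plus strand for NDUFS8. Capitals mark the core motif of NRF1 (GCGCATGC), a known regulator of respiratory genes, and of ETS factors (CCGGAAG), to which GABPA belongs, on either strand. In SDHD the capitals at the left are overlapping matches on both strands, and the stretches of NDUFA5, NDUFA12, COX7A2 and NDUFS8 hold neither motif. Whether a printed start, that of NDUFA5 included, is the one used by the gene as counted was not tested. A motif missing from a stretch may thus still be present at the gene. In the build of the files, GRCh37, the SDHD gene lies at chr11:111957548-111990739, COX5B at chr2:98262525-98264846, NDUFA5 at chr7:123177051-123197958, NDUFA12 at chr12:95289073-95397524, ATP5MC2 at chr12:54026510-54071192, COX7A2 at chr6:75947391-75960039 and NDUFS8 at chr11:67798084-67804111.
SDHD: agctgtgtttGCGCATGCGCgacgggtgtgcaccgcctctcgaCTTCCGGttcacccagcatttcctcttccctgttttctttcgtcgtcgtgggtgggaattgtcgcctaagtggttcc
COX5B: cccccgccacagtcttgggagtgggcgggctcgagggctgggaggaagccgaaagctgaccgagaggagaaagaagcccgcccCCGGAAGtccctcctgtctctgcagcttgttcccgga
NDUFA5: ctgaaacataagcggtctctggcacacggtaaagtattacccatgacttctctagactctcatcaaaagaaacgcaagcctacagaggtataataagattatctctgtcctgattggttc
NDUFA12: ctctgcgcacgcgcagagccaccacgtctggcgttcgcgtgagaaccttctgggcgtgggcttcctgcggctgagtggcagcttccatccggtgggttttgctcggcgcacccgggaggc
ATP5MC2: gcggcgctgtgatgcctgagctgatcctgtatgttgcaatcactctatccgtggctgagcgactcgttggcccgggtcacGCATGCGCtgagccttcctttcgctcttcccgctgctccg
COX7A2: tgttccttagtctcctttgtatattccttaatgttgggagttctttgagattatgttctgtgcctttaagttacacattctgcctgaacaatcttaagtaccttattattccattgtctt
NDUFS8: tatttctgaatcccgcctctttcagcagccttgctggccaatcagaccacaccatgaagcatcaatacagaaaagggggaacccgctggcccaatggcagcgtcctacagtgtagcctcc

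Promoters of 300 bases (250 before to 50 after the start) were matched for 71 of the 90 genes. Both strands were searched for these motifs and for the YY1 core AAGATGG. The NRF1 core was in 18.3% of the subunit promoters and 3.27% of all 27305 promoters, the ETS core in 28.2% and 10.7%, and the YY1 core in 22.5% and 6.06%. Among the 19 matched promoters of genes that rose in SW480 KO the shares were 31.6%, 31.6% and 21.1%. The motifs are thus more frequent at subunit genes as a family, which is a description of letters and was not tested.

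In HCT116, 4 of 81 subunit genes rose, 4.94%, and none fell, beside 8.05% and 5.93% of all genes tested, so that both shares were below the background. No subunit gene passed both thresholds, beside 5.06% of all genes. At an unadjusted limma p under 0.05, 3 were lower, beside 2217 of all 15404 genes. DESeq2 called 6 higher and 1 lower, beside 11.4% and 8.77% of all genes. The median was 0.06, against -0.01 for all genes. Under upper-quartile scaling both moved down, to -0.02 for the subunit genes and -0.097 for all genes. In 5 genes every KO library lay above every WT library and in 1, NDUFB9, below, beside 10.9% and 9.61% of all genes.

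The largest rise was in ATP5MC2, for the c subunit of the ATP synthase ring. Its normalized counts were 3252, 2426, 1727 and 1472 in WT libraries 4A, 4B, 6A and 6B, and 4754, 4398, 3891 and 3196 in KO libraries 44A, 44B, 47A and 47B. The WT clones lay apart, and WT 4A overlapped with the lowest KO library. The log2 fold change was 0.92 (SE 0.23, limma adjusted p = 0.0225), but the WT clones also differed from each other, by 0.82 (SE 0.16, limma adjusted p = 0.028). NDUFA4, a subunit associated with complex IV, had 2155, 1914, 1970.0 and 1205 in WT and 2972, 2513, 2854 and 2503 in KO libraries, which did not overlap, with 0.61 (SE 0.17, limma adjusted p = 0.0318).

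NDUFS8, an iron-sulfur core subunit of complex I, had 2011 to 2844 in WT and 2779 to 3919 in KO libraries, with 0.53 (SE 0.14, limma adjusted p = 0.0262). COX7A2, the widely expressed isoform of subunit 7A, had 2575 to 3339 in WT and 3448 to 4330.1 in KO libraries, with 0.44 (SE 0.11, limma adjusted p = 0.0246). These 2 genes rose in HCT116 and in SW480, where COX7A2 had 1823 to 2078 in WT and 2112 to 2873 in KO libraries and NDUFS8 2689.7 to 3113 in WT and 3215 to 4504 in KO libraries, and both lost the SW480 call under upper-quartile scaling and with clone as a random effect. No gene was called in all 3 lines.

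The HCT116 calls were few and changed with single clones and libraries. With clone as a random effect 1 rose, ATP5MC2, beside 4.28% of all genes that rose and 2.64% that fell. Without clone WT 6 none passed, and 1 did without KO 44. The shares of all genes that rose were 4.41% and 4.73%. None of the 4 was called without WT 6A or without KO 44A, beside 5.47% and 5.27% of all genes. A single gene rose without WT 4B, WT 6B or KO 47A, beside 5.46%, 5.59% and 6.64%, and 7 rose without WT 4A or KO 47B, beside 7.89% and 8.67%. Falls numbered 1 without WT 4A, 2 without KO 47A and 3 without clone KO 47, beside 5.31%, 4.65% and 8.99%. The libraries of the same round deviated together in HCT116, and with the round as a replicate block NDUFA3 was called as well, beside 8.89% of all genes that rose. KO 44 had a median of 0.12 and KO 47 of -0.0019 against WT, beside 0.11 and 0.07 for other short coding genes and 0.23 and 0.27 for ribosomal protein genes.

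In HT29 no subunit gene was called by limma, beside 2.08% of all genes that rose and 0.476% that fell, and 2.3% that passed both thresholds. None was called by edgeR, beside 1.77% that rose and 0.449% that fell, or by DESeq2, beside 6.11% and 2.53%. At an unadjusted p under 0.05 limma gave 2 higher and 0 lower, beside 1589 and 828 of all 14921 genes. At that threshold edgeR gave 4 and DESeq2 5 in either direction. All genes were not counted at that threshold for these tools, so nothing is read from these counts. The median log2 fold change was 0.28, against 0.03 for all genes, and it was 0.00087 without KO 38B, with 0 called, beside 1.87% and 0.479% of all genes. COX6A1 was the only gene with every KO library above every WT library, and none lay below, beside 8.31% and 4.71% of all genes. COX6A1 had 1036, 1520.5, 1179 and 1549.6 in WT and 2144, 1848, 1595 and 4972 in KO libraries, where the last value is KO 38B, with 0.86 (SE 0.34, limma adjusted p = 0.258). The median standard error over the subunit genes was 0.30 in HT29 against 0.09 in SW480.

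NDUFA4L2, a paralogue of NDUFA4 that is known to be induced by hypoxia, had the largest difference between clones of a genotype in complex I, 2.56 for KO 28 minus KO 38 in HT29, which did not pass. It had 210.3, 32.4, 107 and 17.5 in WT libraries 11A, 11B, 40A and 40B, and 418, 7.83, 6.64 and 13.0 in KO libraries 28A, 28B, 38A and 38B. High and low values occurred within clones, between rounds A and B, and the genotypes overlapped. The value of the other lines was at most 15.1.

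Between the HT29 KO clones, 3 genes of complex I were higher in KO 28 than in KO 38 and none was lower, beside 8.87% and 7.18% of all genes. They were NDUFA10, an accessory subunit, with 0.82 (SE 0.18, limma adjusted p = 0.0189), NDUFS1, an iron-sulfur core subunit, with 0.70 (SE 0.17, limma adjusted p = 0.0276), and NDUFA4 with 0.77 (SE 0.21, limma adjusted p = 0.0443). Yet the median over all 80 was -0.40, that is lower in KO 28. Without KO 38B the median was 0.26, and 11 were higher and none lower with KO 38A alone for clone 38, which is assumed to vary like the other groups, beside 11.9% and 8.59%. In HT29 the largest clone differences of complexes III and V, which did not pass, were in UQCR10 with -0.68 and ATP5PD with -1.14. KO 28 had a median of 0.11 and KO 38 of 0.48 against WT, beside 0.15 and 0.66 for other short coding genes. The libraries of clone 38 were apart, with a median of -0.13 in 38A and 1.17 in 38B, so that without 38B the value of KO 38 lies below WT.

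Since a call in 1 line and not in another does not show a difference, the KO effects were tested against each other over all 24 libraries. The fit took 1 spread per gene over all lines, so the HT29 libraries also set the error of HCT116 minus SW480. The median standard error of the subunit genes was 0.30 in each comparison. For KO minus WT it was 0.13 within HCT116 and 0.09 within SW480. Few calls between HCT116 and SW480 thus do not show that their KO effects were alike. Of 82 genes, 0 differed between HT29 and HCT116, 2 between HT29 and SW480 and 1 between HCT116 and SW480, beside 7.25%, 15.8% and 13.2% of all genes. At an unadjusted limma p under 0.05, 8 differed between HT29 and HCT116, beside 3915 of all 18609 genes. NDUFA5 differed in both comparisons with SW480, by -0.62 (SE 0.18, limma adjusted p = 0.0231) for HT29 minus SW480 and -0.56 (SE 0.18, limma adjusted p = 0.0435) for HCT116 minus SW480. It had 2249 to 3035 in WT and 1832 to 3073 in KO libraries of HT29 and 2586 to 3093 in WT and 2579.7 to 2865 in KO libraries of HCT116, where the genotypes overlapped, as set against the rise in SW480. UQCR11, a small subunit of complex III, differed by 0.59 (SE 0.20, limma adjusted p = 0.0442) between HT29 and SW480, where its own log2 fold changes were 0.23 and -0.35, neither called.

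The other genes nearest to a difference did not pass, among them NDUFB9 between HT29 and HCT116 with 0.88 (SE 0.30, limma adjusted p = 0.0785), NDUFA12 between HCT116 and SW480 with 0.58 (SE 0.21, limma adjusted p = 0.0695) and NDUFA4 with 0.67 (SE 0.26, limma adjusted p = 0.092). Without HT29 KO 38B the counts were 1, 2 and 5, beside 7.98%, 16.1% and 16.7% of all genes, with ATP5MC2, SDHD, NDUFA12 and NDUFC2 gained and UQCR11 lost. With clone as a random effect in limma 0 differed. Of all genes, 1.54% were then higher and 0.946% lower for HT29 minus HCT116. These shares were 3.86% and 4.3% for HT29 minus SW480 and 2.84% and 3.64% for HCT116 minus SW480. In that fit 1, 2 and 1 subunit genes had an unadjusted limma p under 0.05. All genes were not counted at that threshold in that fit, so nothing is read from these counts. These comparisons share the libraries of a line with each other.

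The genes around the complexes moved in both directions. Of 19 genes for assembly and repair of complex I, 4 rose and 5 fell in SW480 KO, with TMEM126A (0.49), TMEM126B (0.45), TIMMDC1 (0.49) and NDUFAF3 (0.19) higher and FOXRED1 (-0.52), NDUFAF5 (-0.60), ECSIT, NDUFAF7 and DMAC2 lower, as log2 fold changes. In HCT116, 2 rose, NDUFAF3 (1.14) and TIMMDC1 (0.46), and TMEM70 fell. Of the 4 assembly factors of complex II, 3 rose in SW480, SDHAF2, SDHAF3 and SDHAF4 (0.75), and SDHAF1 fell (-0.49), while in HCT116 SDHAF3 fell. The lists of complex III, IV and V assembly had 2 of 6, 3 of 22 and 1 of 5 higher and 1, 3 and 0 lower in SW480, and 1, 1 and 1 higher and 0, 2 and 0 lower in HCT116. Of 15 electron carriers and coenzyme Q genes 2 rose and 3 fell in SW480 and 1 rose in HCT116.

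Regulators of mitochondrial biogenesis, 19 genes, had 4 higher and 6 lower in SW480. NRF1, whose motif is printed above, fell (-0.59), as did GABPB1 (-0.44), the mitochondrial transcription factor TFAM (-0.29), the helicase TWNK (-0.70), POLG and PPRC1. The coactivators PPARGC1A (0.48) and PPARGC1B, GABPA (0.25) and ESRRA rose. In HCT116 ESRRA rose (0.41) and TWNK (-0.50) and POLG2 fell. Among genes of the tricarboxylic acid cycle, OGDH, MDH2, IDH3G and SUCLG1 rose and CS, citrate synthase, fell (-0.37) in SW480, and IDH3G and SUCLG1 rose in HCT116. Of 7 genes of supercomplexes and isoform switching, HIGD1A, HIF1A and CHCHD10 rose and LONP1 fell in SW480. None of these lists had a call in HT29 with limma. Under upper-quartile scaling, in SW480, the 4 rises among the regulators were lost and 10 fell. There the lists of complex I to V assembly had 3, 2, 2, 2 and 0 higher and 6, 1, 1, 5 and 0 lower, with NDUFAF3, SDHAF3 and the rise of complex V lost, the carriers had 1 higher and 4 lower, and IDH3B of the tricarboxylic acid cycle and CHCHD2 of the supercomplex list fell as well. In HCT116 under that scaling the rises of complex III assembly, of the carriers and of ESRRA were lost, 4 regulators fell, TFAM and TFB2M among them, and IDH3A fell. The call of the marker LGALS4 in HT29 was lost as well. Counts without that scaling are read beside the 26.1% and 22.1% of SW480 and the 8.05% and 5.93% of HCT116. Those under it are read beside 22% of all genes higher and 28% lower in SW480, and 6.32% and 8.64% in HCT116.

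Between the remaining clones of a genotype few subunit genes differed. Between the HT29 WT clones 0 passed with limma, beside 4.94% and 4.08% of all genes. At an unadjusted limma p under 0.05 there was 1, beside 3206 of all 14921 genes, and no other tool was run. Between the HCT116 WT clones 1 was higher in WT 4, ATP5MC2, and 0 lower, beside 1.25% and 1.36%. Between the HCT116 KO clones ATP5MC1 was higher in KO 44, by 0.73 (SE 0.14, limma adjusted p = 0.0133), and NDUFC2, an accessory subunit of complex I, was lower, with a log2 difference of -0.85 (SE 0.15, limma adjusted p = 0.00798), beside 3.56% and 3.6%. In SW480 WT, ATP5MJ, a small subunit of the ATP synthase, was higher in WT 4, by 0.49 (SE 0.08, limma adjusted p = 0.000929), and UQCRH lower, with a log2 difference of -0.53 (SE 0.07, limma adjusted p = 0.000125), beside 3.99% and 4.89%. COX6B2, with the largest clone difference of complex IV, between the HCT116 WT clones, had 15.6, 18.6, 38.8 and 35.2 in WT libraries 4A, 4B, 6A and 6B and did not pass. These comparisons of clones rest on 2 libraries a clone.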

How the data were processed

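RNA was measured in 24 libraries of HT29, HCT116 and SW480 cells. The authors prepared libraries with the TruSeq RNA Sample Prep Kit v2, which keeps no strand, sequenced 150 base pairs from both ends, aligned with STAR 2.7.5b to GRCh37 and counted with featureCounts 2.0.1. The signal values deposited by the authors are gene counts divided by a size factor of each library, from DESeq2. The version of the annotation that the authors used is not given in the sources used here. Whole reads were recovered from 100% of the values, at a tolerance of 0.01, and 22297049 to 29068378 reads per library limit the precision of low genes. In 3 further tables the authors deposited their own comparisons, with fold changes and p-values, which were not used.

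Symbols were taken from a reference table of gene names, which named 95.8% of the 58051 identifiers. Gene types, positions and exons were taken from GENCODE 44 lifted to GRCh37. The filter kept genes that reached 10 in 4 or more of 8 libraries per line (4 of 24 between lines), and these were tested with limma 3.58.1 (trend, robust) on log2 of the normalized count plus 1, with Benjamini-Hochberg adjustment over all genes tested and a threshold of 0.05. Fold changes on this scale understate low genes. Standard errors are those of limma. Clones of a genotype were compared in the same way, from rounds A and B only. Nothing says that rounds are separate cultures, so p-values measure the spread between these libraries, which may be technical. Count tests on the recovered reads (edgeR 4.0.16, DESeq2 1.42.0, R 4.3.3), another scaling, pseudocounts of 0.1 and 5, filters, a replicate block, clone as a random effect or as means and leaving out libraries or clones were alternatives, and some were added after seeing the data. Scripts were tested on simulated data. Tables and plots were made with Python 3.11.15, pandas 2.3.3, numpy 2.4.6 and matplotlib 3.10.9. Libraries of the same round deviated together in HCT116. Correlations between clones of the round A minus round B difference ran from 0.18 to 0.37 there, and 6 of 6 were over 0.1. What the shared deviation comes from was not tested.

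The genes and lists were chosen with earlier results of these data known. Named genes were CTNNB1, the 5 largest called rises and the 5 largest called falls per line, the 5 smallest adjusted p between lines, complex II, isoforms and their partners, and the largest clone difference per complex, 32 genes of the family, and others named were added after their values were seen. A gene of the tricarboxylic acid cycle list is not reported here.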

Additional observations from a re-analysis of the deposited data

Results flagged for a closer look

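The named genes and summary measures gave 182 sets of 4 values, each from 1 of the 6 groups. Independent sets would give about 1 in 20 by chance, or 9.1. These sets share libraries, and some genes were named for their clone differences, so the count is not a test against that figure. In 18 sets a library had a gap to the nearest other that was large for the range of the set. Of these, 12 were HT29 KO 38B, in which COX5B had a normalized count of 20376, COX4I1 26600.0, ATP5MC2 10656, COX7A2L 10295, UQCR10 10211, ATP5PD 9953, NDUFS8 9022, ATP5MC1 7772, NDUFB5 5702, COX6A1 4972, COX8A 3219 and NDUFA12 2558. The other libraries of the group had medians of 6007 for COX5B and 1419 for NDUFA12.

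In the HT29 WT group, ATP5MC2 was high in 11B with 5140.3 and COX7A2 low in 11A with 2040.4. NDUFA4L2 was high in HT29 KO 28A with 418, against a median of 7.83 of the others. COX7B was low in HCT116 WT 6B with 2890.1, NDUFA13 low in SW480 KO 17B with 11.0, and UQCRHL high in SW480 KO 21A with 201.

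Between lines, the KO effect differed for CTNNB1 by 1.44 (HT29 minus HCT116) and 1.21 (HT29 minus SW480) on the log2 scale, for NDUFA5 by -0.62 (HT29 minus SW480) and -0.56 (HCT116 minus SW480), and for UQCR11 by 0.59 (HT29 minus SW480), by the limma test of the difference.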

How the results depend on the processing

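In parentheses is the share of all genes called the same way in the same fit. The 0 calls in HT29 stayed under all alternatives run. In HCT116, 0 (1.77%) rose with clone means, 1 (4.28%) with clone as a random effect, 0 (4.41%) without WT 6, 1 (4.73%) without KO 44 and 0 to 7 without 1 library. Genes that fell there were 1 (8.77%) with DESeq2, 1 (8.64%) with upper-quartile scaling, 2 (2.79%) with no filter, 3 (8.99%) without KO 47 and 0 to 2 without 1 library. In SW480, 15 (22%) rose under upper-quartile scaling, 15 (20.1%) with clone as a random effect, 2 (14.1%) with clone means, 13 (21.2%) without WT 4, 8 (22.8%) without WT 5, 46 (26.4%) without KO 17, 14 (23.3%) without KO 21 and 15 to 33 without 1 library. Genes that fell were 6 (23.7%) with DESeq2, 9 (28%) under upper-quartile scaling, 1 (9.15%) with clone means, 1 (14.3%) with clone as a random effect, 1 (16%) without WT 5, 10 (23%) without KO 21 and 1 to 6 without 1 library. The SW480 median was 0.0061 without KO 21. The cause of these changes was not tested.

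Between lines, HCT116 minus SW480 gave 0 (2.84% higher, 3.64% lower) with clone as a random effect and 5 (16.7%) without HT29 KO 38B. HT29 minus SW480 gave 0 (3.86% and 4.3%) with clone as a random effect and 1 (7.5% and 7.75%) with the replicate block. HT29 minus HCT116 gave 1 (7.98%) without KO 38B. Between HT29 KO clones 11 (11.9%) were higher without KO 38B, where clone 38 is 1 library that is assumed to vary like the other groups. With a replicate block, 5 (8.89%) rose and 0 (7.06%) fell in HCT116, 20 (24.9%) and 2 (20.6%) in SW480 and 0 in HT29. In HT29 and SW480 the rounds did not pair throughout (2 of 6 and 1 of 6 correlations over 0.1). The correlations ran from -0.31 to 0.42 in HT29 and from -0.04 to 0.13 in SW480. The HCT116 median turned from 0.06 to -0.02 under upper-quartile scaling, while that of all genes moved from -0.014 to -0.097. The median between the HT29 KO clones turned from -0.40 to 0.26 without KO 38B. No called gene among those named changed sign. Low counts limit the precision of genes such as NDUFA13, whose exon bases are mostly shared with another gene.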
